A study of Homo sapiens with 42 samples.

Results

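E4 and G8 are labels of THP-1 cells, a human monocytic leukaemia line, and the comparison set 3 small RNA libraries of E4 against 3 of G8. These are 6 of the 30 libraries with counts, in a series whose labels describe 42 samples in 14 groups. The E4 libraries came from THP-1 cells without treatment of the RNA by Antarctic phosphatase and polynucleotide kinase (PNK), and the G8 libraries came from THP-1 cells handled in the same way. In both groups the mirVana PARIS kit served to enrich small RNA and the NEBNext Small RNA kit to make the libraries. The series concerns knockout of POLR3G and POLR3GL in THP-1, the alternative forms of a subunit of RNA polymerase III, but the labels do not say which gene was lost in E4 or in G8, nor whether each is 1 clone. Loss of either gene was not checked here, since the features counted are non-coding RNAs. The THP-1 samples labelled con were not analysed here. The labels do not say that the 3 libraries of a group came from separate cultures, so p-values measure the spread between libraries, which may be technical.

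RNA polymerase III makes transfer RNAs (tRNA), 5S ribosomal RNA, 7SL, 7SK, U6, Y RNAs and vault RNAs. MicroRNAs are cut from hairpins and guide Argonaute to messenger RNAs through the seed near their 5′ end, and C/D box small nucleolar RNAs (snoRNA) guide 2′-O-methylation of ribosomal RNA. Adapter ligation without end repair favours RNAs that carry a 5′ phosphate and a 3′ hydroxyl, as microRNAs do. Y RNAs are short cytoplasmic RNAs bound by the Ro60 protein, and the genome holds many copies derived from them.

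The let-7 microRNAs are shown because their counts could be read for the 5′ arm by itself and because they share a seed while their levels differed within G8. Mature sequences are those of RefSeq (GRCh38.p14), with the seed, bases 2 to 8, in capitals.
let-7a-5p: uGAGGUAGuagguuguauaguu
let-7b-5p: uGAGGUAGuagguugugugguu
let-7f-5p: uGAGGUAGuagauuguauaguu
let-7g-5p: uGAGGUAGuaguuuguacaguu
let-7i-5p: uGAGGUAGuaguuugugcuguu
miR-98-5p: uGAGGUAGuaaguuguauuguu

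The miR-92a and miR-25 pair is shown because its members also share a seed and differed in level within G8. Their counts were not read for an arm by itself.
miR-92a-3p: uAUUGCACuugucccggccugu
miR-25-3p: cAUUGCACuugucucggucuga

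RNY1 and RNY4 are shown because Y RNA copies were among the features that differed most between E4 and G8, and the results below group them by the Y RNA gene they resemble most. Their sequences are GENCODE v29 transcripts on GRCh38, RNY1 at chr7:148987136-148987248 on the minus strand and RNY4 at chr7:148963315-148963410 on the plus strand. RNY1 was identical to RNY4 at 63.7% of aligned positions.
RNY1: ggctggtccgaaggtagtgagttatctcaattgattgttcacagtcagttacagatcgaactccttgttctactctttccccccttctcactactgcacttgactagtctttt
RNY4: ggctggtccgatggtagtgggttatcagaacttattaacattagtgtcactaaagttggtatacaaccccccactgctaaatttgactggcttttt

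SNORD6 and SNORD82 are C/D snoRNAs with higher counts in G8 libraries 1 and 2. Capitals mark the letters TGATGA near the 5′ end and CTGA near the 3′ end, searched on the transcribed strand as the C and D boxes. Of 197 tested C/D snoRNAs with a GENCODE v29 transcript of the same symbol, 71.6% held TGATGA in their first 20 bases and 92.9% held CTGA in their last 15. SNORD6 lies at chr11:93731502-93731574 and SNORD82 at chr2:231460371-231460440, both on the minus strand.
SNORD6: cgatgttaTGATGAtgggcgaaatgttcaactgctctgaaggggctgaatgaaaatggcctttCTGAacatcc
SNORD82: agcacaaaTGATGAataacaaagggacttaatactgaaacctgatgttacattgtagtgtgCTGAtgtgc

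The libraries did not divide by label alone. MicroRNA took 19.6, 18.1 and 18.9% of the counts in E4 libraries 1, 2 and 3, against 1.95, 2.00 and 18.4% in G8 libraries 1, 2 and 3. G8 library 3 thus lay within the E4 range, and G8 libraries 1 and 2 lay far below it. In the other THP-1 groups of the same arm microRNA took 12.6 to 25% of the counts. C/D snoRNA took 64.9, 64.9 and 70.3% in the E4 libraries, against 89.4, 90.9 and 70.1% in the G8 libraries, so G8 libraries 1 and 2 were also the highest for this family. Of the counts outside microRNA, C/D snoRNA took 80.7, 79.2 and 86.6% in E4 and 91.2, 92.7 and 85.8% in G8. The kept counts were 10739581 to 11039071 per library in E4 and 10204086 to 11688883 in G8. Over the features other than microRNA, the SD of log2 differences was 1.35 between G8 libraries 1 and 3 and 1.27 between G8 libraries 2 and 3. It was 0.77 to 0.94 between any E4 library and G8 library 3, and 0.41 to 0.79 between E4 libraries. The results are therefore given with all 3 G8 libraries and with G8 library 3 alone.

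**Figure D1:**
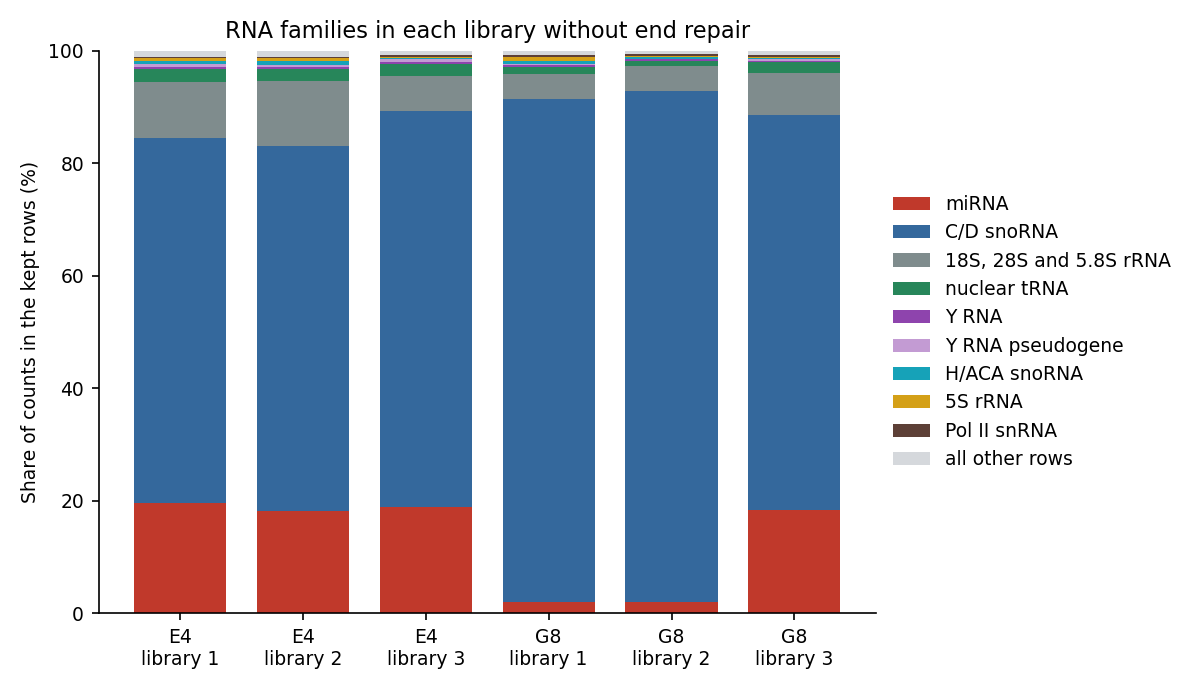
Stacked bars give the share of kept counts (%) taken by each RNA family in the 3 E4 and the 3 G8 libraries without end repair. G8 libraries 1 and 2 stand apart with 1.95 and 2.00% microRNA, and G8 library 3, at 18.4%, resembles the E4 libraries.

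Levels are given as CPM, counts per 1e6 of the library total scaled by a trimmed-mean factor, and the factors were 1.16, 1.08 and 1.02 in E4 and 0.699, 0.584 and 1.02 in G8. With factors so far below 1, the CPM of all features do not add up to the same sum in every library, and C/D snoRNA alone reached 1279000 and 1557000 CPM in G8 libraries 1 and 2, against 558100 to 689700 CPM in the other 4. A log2 fold change is E4 minus G8, with its standard error (SE) and a p adjusted over all features by the Benjamini-Hochberg method, called below 0.05. Of 1761 features tested, 391 (22.2%) were called, 224 higher in E4 (12.7%) and 167 lower (9.48%). The 3 E4 and the 3 G8 libraries did not overlap for 621 features (35.3%). The median log2 fold change of all features was 0.19, and it moved by 0.48 when library totals were used in place of the scaling factors, with 316 higher and 39 lower among 355 calls. With DESeq2's size factors it moved by -0.18, with 165 higher and 226 lower among 391 calls, and factors from all rows except microRNA moved it by 0.21, with 237 higher and 79 lower among 316. Factors from microRNA alone moved it by -1.87, with 97 higher and 915 lower among 1012. When microRNA rows were left out of both the scaling and the test, 357 of 1430 features (25%) were called, 228 higher (15.9%) and 129 lower (9.02%).

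Against G8 library 3 alone, 133 of 2029 features (6.55%) were called, 96 higher in E4 (4.73%) and 37 lower (1.82%). Counts of calls against library 3 given below for single families are to be read beside these shares of all features. That fit assumes that the lone G8 library varies like the other groups. Both comparisons use the same E4 libraries and share G8 library 3, and 88 features were called in both, which is 22.5% of the calls with 3 G8 libraries and 66.2% of those with library 3 alone. Of the 88, 64 were Y RNA copies, 7 microRNAs, 7 tRNAs and 3 C/D snoRNAs. Leaving out 1 library moved the count of calls to 31, 78 and 38 without E4 libraries 1, 2 and 3, and to 94, 43 and 976 without G8 libraries 1, 2 and 3. The fit of the 6 libraries by themselves, without A4 and A7, called 0 features with edgeR, with 426 at an unadjusted p under 0.05, whereas DESeq2's Wald test over the 12 libraries called 545.

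**Figure D2:**
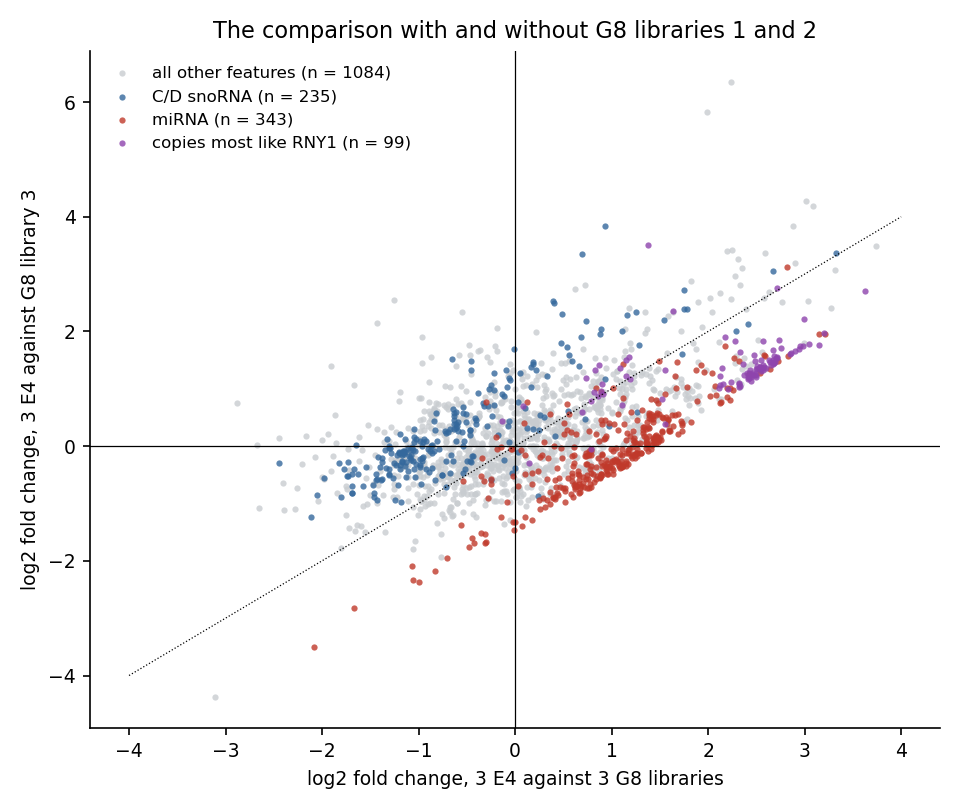
Each point is a feature tested in both fits, with the log2 fold change of 3 E4 against 3 G8 libraries on the x axis and of 3 E4 libraries against G8 library 3 on the y axis; the dotted line marks equal values. MicroRNAs lie mostly to the right of the y axis and around 0 in height, with medians of 0.97 and -0.09, whereas the copies most like RNY1 lie mostly above 0 on both axes, with medians of 2.45 and 1.35.

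The RNA families differed in which libraries carried the difference. The sum over Y RNA pseudogenes rose in E4 by 0.93 on the log2 scale (SE 0.165, adjusted p = 0.00346 over 22 families), by 0.90 against G8 library 3 alone (adjusted p = 0.0207), and took the opposite sign, -1.17, under factors from microRNA alone (adjusted p = 0.0656). Of the 22 family sums 6 (27.3%) were called, and this was the only rise. Leaving out E4 libraries 1, 2 and 3 left 3, 2 and 5 family sums called, and leaving out G8 libraries 1, 2 and 3 left 3, 3 and 8. The sums of 7SL, the RNA scaffold of the signal recognition particle, fell by 0.93 (adjusted p = 0.00622), those of C/D snoRNA fell by 0.93 (adjusted p = 0.0235) and those of the snRNAs made by RNA polymerase II fell by 1.02 (adjusted p = 0.0200). The sums of U6 with its pseudogenes fell by 0.63 (adjusted p = 0.0239) and of 7SL pseudogenes by 0.65 (adjusted p = 0.00622). With library totals edgeR called none of these 5 falls, with adjusted p between 0.126 and 0.797. Against G8 library 3 alone none of these 5 falls was called by edgeR, and the Y RNA pseudogenes were the 1 family called, with 4 families at an unadjusted p under 0.05. The sum of microRNA differed by 1.10 (SE 0.568, adjusted p = 0.174), and by -0.08 against G8 library 3 (adjusted p = 0.633).

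**Figure D3:**
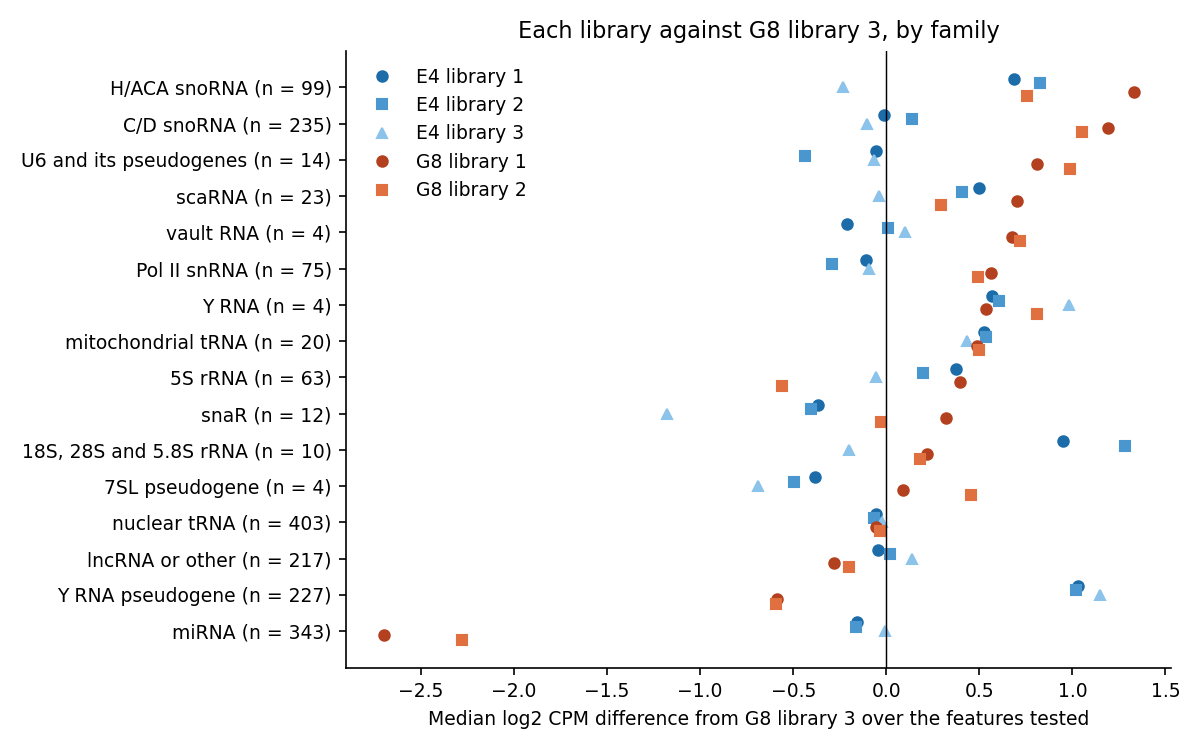
Points give the median log2 CPM difference of each library from G8 library 3 over the tested features of a family, for E4 libraries 1 to 3 and G8 libraries 1 and 2. For microRNA the E4 libraries sit near 0 and G8 libraries 1 and 2 below -2, and for Y RNA pseudogenes the 3 E4 libraries sit above 1 while G8 libraries 1 and 2 sit near -0.59.

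Of 1920 microRNA rows 343 passed the filter on low counts, and 44 of these rose in E4 and 0 fell, a share of rises close to the 12.7% over all features. Their median log2 fold change was 0.97, beside 0.19 for all features, while 21 rose and 41 fell under factors from microRNA alone. With G8 library 3 alone the median was -0.09. The count of rises was 4, 9 and 4 without E4 libraries 1, 2 and 3, and 8, 5 and 297 without G8 libraries 1, 2 and 3. Within G8, 207 tested microRNAs had at least 5 CPM in library 3, and 141 of them were at least 4-fold lower in both library 1 and library 2. The median of the 207 was 9.84-fold lower in library 1 and 7.09-fold lower in library 2. Of the 207, only MIR12136 and MIR193A, named after their values were seen, were not lower in either. The 207 were chosen by their level in library 3, which favours microRNAs that are high there. MIR1908, named after its values were seen and outside the 207, had 55, 49 and 28 counts in G8 libraries 1, 2 and 3. All features with at least 5 CPM in any of the 6 libraries were also classed by the 4-fold rule on log2(CPM + 0.5). Of 219 microRNA rows 63.5% were at least 4-fold lower in both G8 library 1 and library 2, against 17% of the 1087 features of any kind.

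Some of the most abundant microRNAs show the same split between libraries. MIR148A had 10600, 11330 and 14790 CPM in E4 against 503.1, 555.7 and 10350 CPM in G8. MIR21, a microRNA expressed at high levels in myeloid cells, had 5842, 5976 and 7126 CPM in E4 against 374.8, 423.3 and 7197 CPM in G8. G8 library 3 lay just below the E4 range for the first and above it for the second, and neither was called (adjusted p = 0.206 and 0.307). MIR92A1, of the miR-17-92 cluster, had 10750, 10950 and 11150 CPM in E4 against 3280, 4216 and 9777 CPM in G8, a log2 fold change of 0.93 (SE 0.356, adjusted p = 0.0799). Its groups did not overlap, but the gap to G8 library 3 was small. Its counts are shared with MIR92A2, since the mature sequences are the same.

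MicroRNAs with the same seed were lower by different factors in G8 libraries 1 and 2. MIR25 had 1231, 1206 and 1282 CPM in E4 against 118.4, 142.8 and 2010 CPM in G8, so library 3 was the highest of the 6 and libraries 1 and 2 the lowest. Relative to G8 library 3, the log2 level of MIR25 was -4.08 in G8 library 1 and -3.81 in G8 library 2, and that of MIR92A1, with the same seed, was -1.58 and -1.21. For let-7 the 5′ arms could be read by themselves in 6 members, which all have 22 bases and the seed GAGGUAG. Relative to library 3, G8 libraries 1 and 2 were lower by 2.65- and 2.00-fold for let-7b, with 10 G or C bases, by 3.81- and 3.08-fold for let-7a, with 8, and by 8.18- and 7.97-fold for miR-98, with 7. They were lower by 11.3- and 9.61-fold for let-7f, with 7 such bases, by 11.8- and 10.4-fold for let-7i, with 9, and by 17.6- and 13.7-fold for let-7g, with 8. The differences between these members are within 1 group and were not tested. Of the 12 let-7 genes tested between the groups, 5 rose in E4 with 3 G8 libraries (median 1.44) and 2 with the replicate number as a block. With 3 G8 libraries 12.7% of all features rose, and the median was 0.97 for all tested microRNAs and 0.19 for all features. With G8 library 3 alone edgeR called 0, with 1 at an unadjusted p under 0.05 (median 0.37). Without any 1 library of E4, or without G8 library 1 or 2, edgeR called 0 of the 12, with 5 or 6 at an unadjusted p under 0.05, and without G8 library 3 it called all 12.

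**Figure D4:**
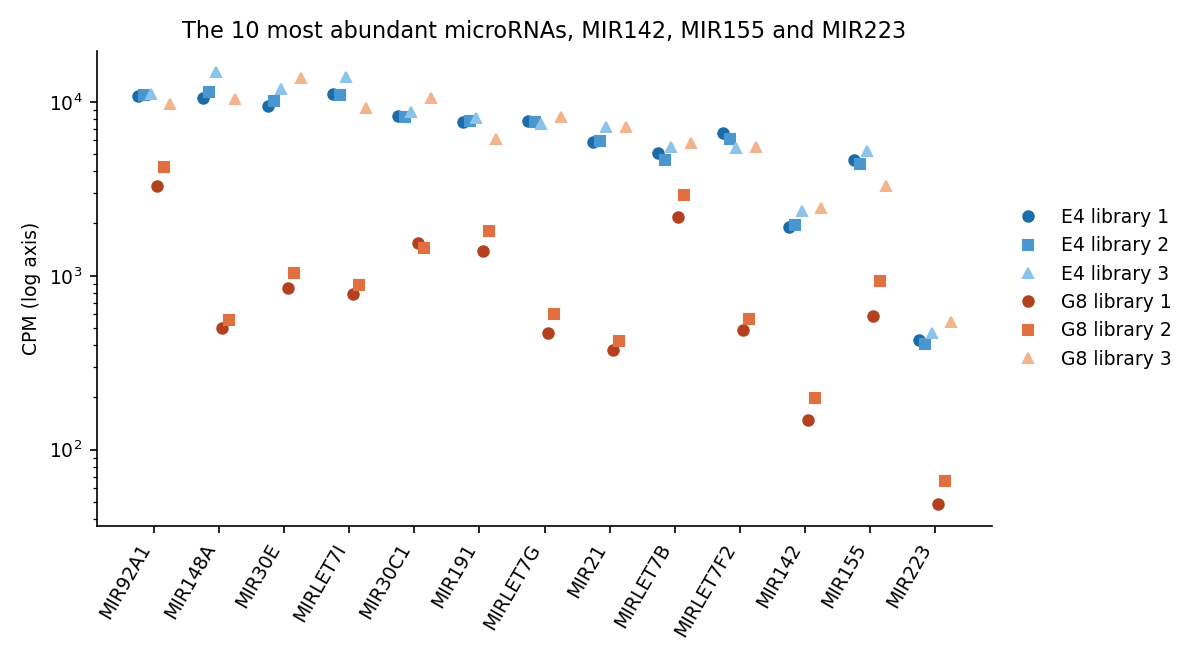
Points give the CPM (log axis) of the 10 most abundant microRNAs, MIR142, MIR155 and MIR223 in each of the 6 libraries. G8 libraries 1 and 2 lie below the other 4 libraries for each of the 13 microRNAs, by the least for MIRLET7B, at 2191 and 2906 CPM against 4618 to 5816 CPM in the others.

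MicroRNAs that mark blood cells were present in both groups. MIR142, made in cells of the blood lineage, had 1912, 1962 and 2343 CPM in E4 against 147.5, 198.2 and 2456 CPM in G8. MIR223, abundant in myeloid cells, had 427.4, 406.7 and 466.6 CPM in E4 against 48.5, 66.1 and 544.3 CPM in G8. Neither was called (adjusted p = 0.314 and 0.318), and for both G8 library 3 was the highest of the 6. MIR155, induced in activated macrophages, had 4637, 4402 and 5225 CPM in E4 against 590.5, 939.4 and 3293 CPM in G8, and rose by 1.56 (SE 0.509, adjusted p = 0.0470). It was not called against G8 library 3 alone (0.51, adjusted p = 0.177), and over the 6 leave-outs of 1 library its adjusted p ran between 3.14e-06 and 0.181, with only the leave-out of G8 library 3 calling it. The 5 myeloid markers added up to 13180, 13110 and 15500 CPM in E4 against 1177, 1647 and 13690 CPM in G8. Markers of other cells followed the same split: the 6 epithelial ones added up to 47.0, 48.3 and 54.4 CPM in E4 and 4.53, 5.78 and 34.0 CPM in G8. The 10 of fibroblast and muscle added up to 387.7, 376.8 and 423.3 CPM in E4 and 19.3, 24.6 and 454.1 CPM in G8, with MIR1-2, MIR133A1 and MIR133A2 at 0. The 9 matched markers of liver, neuron, erythroid and lymphoid cells added up to 2210, 2253 and 2659 CPM in E4 and 156.2, 147.5 and 3009 CPM in G8, with MIR9-1 at 739.5, 762.8 and 897.0 CPM in E4 and 53.3, 54.2 and 1014 CPM in G8. Their part in the results was not tested, and fewer cells of a type cannot be told apart from less RNA per cell in these bulk libraries. Of 13 microRNAs linked to monocyte maturation, 2 rose with 3 G8 libraries, a share near the 12.7% of all features that rose, and with library 3 alone edgeR called 0, with 4 at an unadjusted p under 0.05.

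The 7 microRNAs called with 3 G8 libraries and with library 3 alone all rose in E4, among them 3 of the miR-181 family, which regulates haematopoietic differentiation. Of 5 tested miR-181 genes 4 rose with 3 G8 libraries, beside 12.7% of all features. Against library 3 alone MIR181D, of the same family, went the other way and fell by 2.18. MIR181A2 had 144.6, 148.8 and 165.6 CPM in E4 against 8.57, 13.8 and 62.8 CPM in G8, a rise of 2.43 (SE 0.597, adjusted p = 0.0215) and of 1.26 against library 3 alone (adjusted p = 0.0192). MIR200C, of the epithelial miR-200 family, had 28.7, 27.9 and 32.4 CPM in E4 against 2.94, 1.77 and 9.84 CPM in G8, a rise of 2.59 (SE 0.497, adjusted p = 0.0146). In both cases every G8 library lay below every E4 library, library 3 included. MIR484, named after its values were seen, had 341.0, 368.3 and 279.0 CPM in E4 against 68.9, 68.4 and 122.8 CPM in G8, a rise of 1.93 (SE 0.318, adjusted p = 0.00765). MIR1226, annotated as a mirtron cut from a short intron, had 4.09, 3.11 and 4.39 CPM in E4 against 1.47, 1.28 and 1.35 CPM in G8, a rise of 1.49 (adjusted p = 0.0119) in which the 3 G8 libraries lay close together. MIR181B1, MIR181B2 and MIR615 were the others, named for being in this set. MIR200C, MIR484, MIR1226 and MIR615 stayed called whichever of the 6 libraries was left out, with adjusted p no higher than 0.0482, and MIR181A2, MIR181B1 and MIR181B2 did not (highest adjusted p 0.0777, 0.114 and 0.104), with MIR181A2 called only when G8 library 1 or 3 was left out. MIR181B1 and MIR181B2 share reads, so they are not separate members of the miR-181 counts.

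When microRNA rows were scaled and tested by themselves, so that each level is a share of microRNA, 51 of 349 (14.6%) were called, 20 higher in E4 (5.73%) and 31 lower (8.88%). The same fit of microRNA rows against G8 library 3 alone, chosen after seeing the data, called 60 of 394 (15.2%), 28 higher (7.11%) and 32 lower (8.12%), and the values against library 3 in the rest of the paragraph are from it. MIR181A2 had 858.4, 886.5 and 894.5 CPM of microRNA counts in E4 against 306.6, 403.8 and 347.4 in G8, a rise of 1.41 (adjusted p = 0.000294), and of 1.42 against library 3 alone (adjusted p = 1.47e-05). On this scale the 3 G8 libraries lay close together. MIR146A and MIR146B, which damp inflammatory signalling in myeloid cells, rose by 1.49 and 1.46 (adjusted p = 0.00187 and 0.000779), and by 0.94 and 1.02 against library 3 alone (adjusted p = 0.000923 and 0.00037). MIR320A had 4503, 4194 and 5586 on this scale in E4 against 31180, 33590 and 6516 in G8, so its fall of 2.25 (adjusted p = 0.0058) rested on G8 libraries 1 and 2, and against library 3 alone the difference was -0.37 and not called (adjusted p = 0.198). MIR95 had 22.9, 25.1 and 21.7 on this scale in E4 against 61.3, 103.3 and 251.3 in G8, and fell by 2.59 (adjusted p = 0.000759) and by 3.35 against library 3 alone (adjusted p = 4.03e-09). MIR95 rests on 14 and 22 counts in G8 libraries 1 and 2. These microRNAs were named after their values were seen, except MIR181A2.

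Of 867 rows of Y RNA copies, 227 passed the filter, and 120 rose while 10 fell in E4, beside 12.7% and 9.48% of all features. Under factors from microRNA alone 71 rose and 40 fell. With the replicate number as a block 100 rose and 1 fell. Against G8 library 3 alone 71 of 266 rose and 0 fell. The rises numbered 19, 44 and 19 without E4 libraries 1, 2 and 3, and 55, 21 and 142 without G8 libraries 1, 2 and 3. By alignment to RNY1, RNY3 and RNY4, 200 of the 227 copies could be assigned to the Y RNA they resemble most. Of 99 copies most like RNY1, with a median identity of 86.8%, 83 rose and 0 fell. Their median log2 fold change was 2.45, beside 0.19 for all features, and 87 remained when copies with counts within 20% of each other in every library were taken as 1. The 99 copies together held only 1119 and 1004 counts in G8 libraries 1 and 2, where counting noise alone can exceed 20%. The 87 are therefore not a count of copies with separate reads. Reads that fit several copies make the single copies uncertain, and sums over copies less so.

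Summed over the 99 copies most like RNY1, the level was 1643, 1645 and 2020 CPM in E4 against 137.0, 161.1 and 675.8 CPM in G8. G8 libraries 1 and 2 were the lowest, but G8 library 3 too lay below every E4 library. Against it alone 56 of these copies rose and 0 fell, with a median of 1.35 beside 0.12 for all features. The rises numbered 88 with library totals, 76 with DESeq2's size factors, 82 with factors from all rows except microRNA and 67, with 3 falls, with factors from microRNA alone. Leaving out E4 libraries 1, 2 and 3 left 11, 32 and 8 rises, and leaving out G8 libraries 1, 2 and 3 left 42, 13 and 86. With end repair the same copies took 0.0192, 0.0190 and 0.0216% of the counts in E4 against 0.0073, 0.0083 and 0.0058% in G8, where G8 library 3 was the lowest.

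The copies most like RNY3 showed another pattern across the libraries. Their sum was 204.8, 192.3 and 223.4 CPM in E4 against 562.4, 398.3 and 153.5 CPM in G8, so that G8 libraries 1 and 2 were above and library 3 below the E4 libraries. Of these 76 copies 19 rose and 7 fell, beside 12.7% and 9.48% of all features, with a median of 0.90. But 32 rose and 1 fell with library totals, and 11 rose and 11 fell with DESeq2's size factors. With factors from microRNA alone 1 rose and 22 fell. With the block 9 rose and 1 fell, and against library 3 alone 5 rose and 0 fell. The 25 copies most like RNY4 added up to 1947, 1960 and 2654 CPM in E4 against 1120, 1456 and 1338 CPM in G8, and 9 rose while 0 fell, with a median of 0.71, but 0 rose and 7 fell with factors from microRNA alone. Against library 3 alone 4 of them rose and 0 fell. With end repair the copies most like RNY3 took 0.0984, 0.0915 and 0.114% of the counts in E4 against 0.164, 0.183 and 0.143% in G8. Those most like RNY4 took 0.310, 0.290 and 0.396% in E4 against 0.226, 0.182 and 0.230% in G8. All Y RNA copies together took 0.631, 0.599 and 0.763% in E4 against 0.601, 0.605 and 0.596% in G8, and the groups overlapped. The difference between the 3 sets was not tested.

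The Y RNA genes themselves differed in direction. RNY1 had 1366, 1427 and 1754 CPM in E4 against 710.2, 915.8 and 861.3 CPM in G8, and rose by 0.87 (SE 0.263, adjusted p = 0.0370). Its groups did not overlap, yet with the replicate number as a block the adjusted p was 0.0587, and against library 3 alone the difference of 0.79 was not called (adjusted p = 0.0898). Of the 6 leave-outs of 1 library, only that of G8 library 3 called it, with adjusted p between 0.00466 and 0.122. RNY3 had 201.0, 199.6 and 189.7 CPM in E4 against 1466, 1018 and 241.4 CPM in G8, and fell by 2.21 (SE 0.545, adjusted p = 0.0215). Library 3 was close to the E4 libraries, and against it alone the difference was -0.31 (adjusted p = 0.699). RNY3 too was called in only 1 of the 6 leave-outs, that of G8 library 3, and its adjusted p reached 0.0791. RNY4 had 1310, 1325 and 1829 CPM in E4 against 1155, 1364 and 946.2 CPM in G8, with groups that overlapped (0.37, adjusted p = 0.337). RNY5 had 237.5, 230.5 and 234.6 CPM in E4 against 199.9, 246.8 and 115.9 CPM in G8. It was not called with 3 G8 libraries (0.32, adjusted p = 0.433) and rose by 1.00 against library 3 alone (adjusted p = 0.0386).

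**Figure D5:**
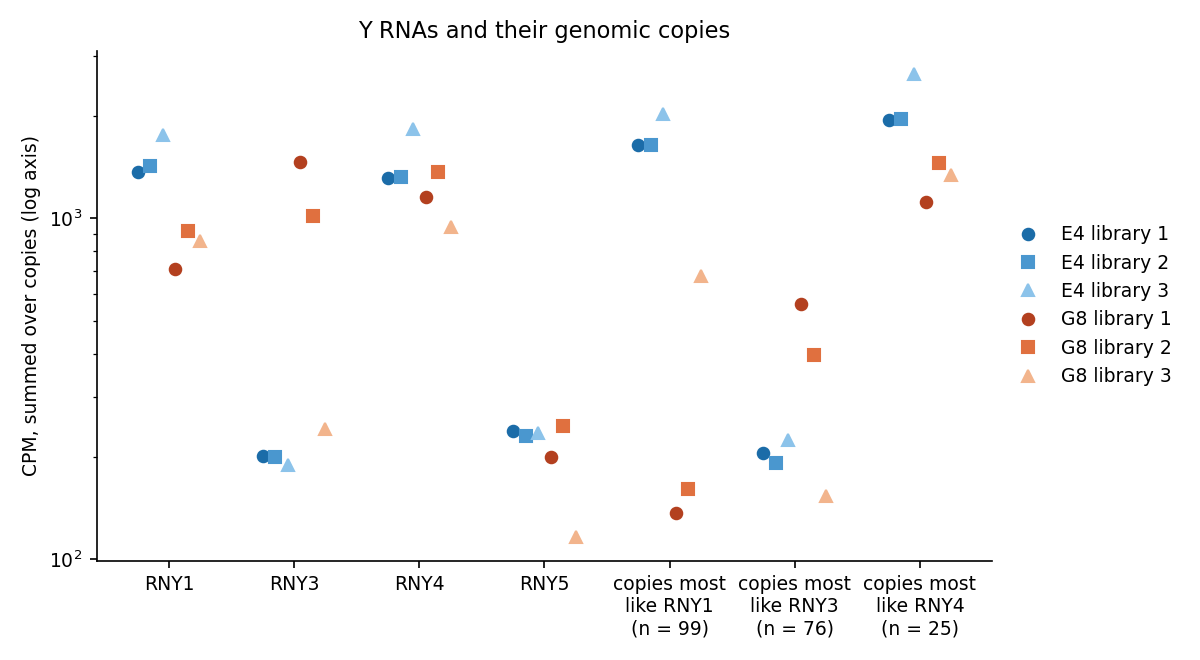
Points give the CPM (log axis) of the 4 Y RNA genes and the CPM summed over their copies in each of the 6 libraries. The copies most like RNY1 reach 1643 to 2020 CPM in E4 and 137.0 to 675.8 CPM in G8, while RNY3 stands at 1466 and 1018 CPM in G8 libraries 1 and 2 and below 250 CPM in the other 4.

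Of the 1035 C/D snoRNA rows 235 were tested, and 74 fell while 2 rose in E4, beside 9.48% and 12.7% of all features. Their median was -0.71. Against G8 library 3 alone the median was 0.08. The falls numbered 33 with the replicate number as a block, 24 with library totals and 39 with factors from all rows except microRNA. They numbered 0, 2 and 1 without E4 libraries 1, 2 and 3, and 9, 3 and 125 without G8 libraries 1, 2 and 3. SNORD6 had 2018, 2069 and 2611 CPM in E4 against 12120, 21680 and 2687 CPM in G8, and fell by 2.45 (SE 0.553, adjusted p = 0.0195), and against G8 library 3 the difference was -0.29 (adjusted p = 0.470). SNORD82 had 9706, 10010 and 12670 CPM in E4 against 31300, 48300 and 17240 CPM in G8, and fell by 1.58 (SE 0.345, adjusted p = 0.0184). For SNORD82 library 3 also lay above the E4 libraries, by a difference that was not called (-0.70, adjusted p = 0.0738). SNORD6 and SNORD82 were each called in only 2 of the 6 leave-outs, those of G8 library 1 and G8 library 3, and reached adjusted p of 0.0671 and 0.0644 in the others.

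Abundant C/D snoRNAs split in the same way. SNORD44, from an intron of GAS5, had 60220, 61240 and 85170 CPM in E4 against 87830, 137500 and 48990 CPM in G8, with G8 library 3 the lowest of the 6 (-0.41, adjusted p = 0.401). SNORD29, from SNHG1, had 25480, 24080 and 34320 CPM in E4 against 68180, 97850 and 30370 CPM in G8, and its fall of 1.23 (adjusted p = 0.0392) was not called with the block (adjusted p = 0.0729) or against library 3 (-0.15, adjusted p = 0.775), and of the 6 leave-outs only that of G8 library 3 called it. Of the 10 GAS5-hosted snoRNAs 1 fell and 0 rose, and of the 8 SNHG1-hosted ones 4 fell and 0 rose, whereas with library totals 1 GAS5-hosted snoRNA rose and none of either host fell. With library 3 alone edgeR called 0 of either set, with 2 and 0 at an unadjusted p under 0.05. Of the 54 tested C/D snoRNAs of imprinted loci 3 fell and 1 rose, beside 9.48% and 12.7% of all features, against 0 falls and 5 rises with library totals. The C/D snoRNAs called both with 3 G8 libraries and with library 3 alone were SNORD121B, SNORD53B and SNORD4A. SNORD121B had 275.3, 264.9 and 361.0 CPM in E4 against 1205, 2011 and 695.1 CPM in G8, and fell by 2.12 (SE 0.365, adjusted p = 0.00984) and by 1.24 against library 3 alone (adjusted p = 0.0178). It was called in 5 of the 6 leave-outs, and without E4 library 1 its adjusted p was 0.0501. SNORD53B, named for being in this set, had 1184, 1307 and 1468 CPM in E4 against 3820, 4709 and 2412 CPM in G8, and SNORD4A, named for the same reason, had 203.8, 198.6 and 247.8 CPM in E4 against 438.5, 621.4 and 418.5 CPM in G8. Neither was called when an E4 library was left out, with adjusted p up to 0.0560 and 0.0696, and SNORD4A was also not called without G8 library 2.

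Nuclear tRNA took 2.29, 2.10 and 2.06% of the counts in E4 against 1.25, 0.993 and 2.06% in G8. Of 403 tested tRNA rows 35 rose and 26 fell, beside 12.7% and 9.48% of all features, with a median of -0.03. With the block 25 rose and 14 fell, with library totals 56 rose and 7 fell, with DESeq2's size factors 16 rose and 45 fell, and with factors from microRNA alone 2 rose and 295 fell. Without E4 libraries 1, 2 and 3 the rises were 5, 10 and 8, and without G8 libraries 1, 2 and 3 they were 10, 5 and 97. The tRNA row with the highest level, tRNA-Ser-TGA-1-1, had 2627, 2765 and 3170 CPM in E4 against 607.4, 791.5 and 3610 CPM in G8, a split like that of the microRNAs (adjusted p = 0.314). Among the 280 tRNA rows with at least 5 CPM, 5 were at least 4-fold lower in both G8 library 1 and G8 library 2 than in library 3. Of the 7 tRNAs called in both comparisons, named after their values were seen, tRNA-Leu-AAG-1-3 had 24.4, 23.2 and 27.0 CPM in E4 against 9.30, 8.35 and 10.5 CPM in G8, and rose by 1.40 (SE 0.222, adjusted p = 0.00765), whichever of the 6 libraries was left out (highest adjusted p 0.0469). Here the 3 G8 libraries lay within a narrow range, and the rise against library 3 alone was 1.22 (adjusted p = 0.0203). The isoleucine tRNA-Ile-TAT-1-2|3 had 34.1, 37.4 and 32.4 CPM in E4 against 2.45, 4.01 and 13.0 CPM in G8, and rose by 2.40 (adjusted p = 0.0177), a call that was lost without E4 library 1 or G8 library 2 (adjusted p up to 0.0636). Copies of a tRNA with the same sequence share reads.

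Most other single-gene RNAs of polymerase III did not pass the test. The 4 vault RNAs, components of the vault particle or related to them, had adjusted p between 0.0564 and 0.692. VTRNA1-1 had 119.2, 117.0 and 127.0 CPM in E4 against 112.4, 130.1 and 86.0 CPM in G8 (0.15, SE 0.256, adjusted p = 0.692). VTRNA2-1, also called nc886, had 141.2, 137.4 and 172.7 CPM in E4 against 291.2, 266.1 and 149.1 CPM in G8, with library 3 inside the E4 range (-0.65, adjusted p = 0.213). RN7SK, the 7SK RNA that holds P-TEFb inactive, had 123.8, 141.9 and 128.9 CPM in E4 against 356.2, 241.4 and 110.6 CPM in G8 (-0.84, adjusted p = 0.135). RN7SL1 had 11.3, 10.8 and 11.3 CPM in E4 against 29.99, 22.5 and 17.4 CPM in G8, and fell by 1.06 (SE 0.256, adjusted p = 0.0213), with all 3 G8 libraries above E4. Against library 3 alone it was not called (-0.66, adjusted p = 0.152), and of the 6 leave-outs only that of G8 library 3 called it. RMRP, the RNA of the RNase MRP complex, had 256.1, 270.5 and 271.1 CPM in E4 against 291.0, 316.0 and 372.1 CPM in G8 (-0.30, SE 0.231, adjusted p = 0.356). RPPH1, the RNA of RNase P, had 60.3, 81.9 and 39.8 CPM in E4 against 73.3, 64.5 and 40.7 CPM in G8, and the groups overlapped (0.03, SE 0.387, adjusted p = 0.961). Of the 20 mitochondrial tRNAs, which polymerase III does not make, MT-TW rose by 1.31 (SE 0.317, adjusted p = 0.0213), at 28.4, 42.1 and 23.9 CPM in E4 against 15.1, 10.1 and 12.8 CPM in G8. It was not called against library 3 alone (1.29, adjusted p = 0.129) and was called in only 2 of the 6 leave-outs, those of G8 libraries 1 and 3.

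Several nuclear RNAs varied within E4 as much as between the groups. SNORA18, an H/ACA snoRNA of the class that guides pseudouridylation, had 1085, 1764 and 366.5 CPM in E4 against 2063, 760.3 and 432.1 CPM in G8 (-0.02, SE 0.709, adjusted p = 0.987). SCARNA20, of the RNAs that act in Cajal bodies, had 549.1, 886.6 and 61.3 CPM in E4 against 184.6, 64.5 and 52.6 CPM in G8 (2.31, SE 1.02, adjusted p = 0.125). Library 3 was the lowest of its group for both, in E4 and in G8. H/ACA snoRNA as a family took 0.557, 0.694 and 0.153% of the counts in E4 against 0.617, 0.204 and 0.214% in G8, and 9 of its 99 tested members fell while 1 rose, a share of falls near the 9.48% over all features, against 1 fall and 5 rises with library totals. Leaving out any of the E4 libraries or G8 library 1 left 0 falls, leaving out G8 library 2 left 1, and leaving out G8 library 3 gave 22. The snRNAs of polymerase II, the RNAs of the spliceosome, held 21 falls and 0 rises among 75 tested rows, and 2 falls with the block. With library totals edgeR called 0, with 8 at an unadjusted p under 0.05. Against G8 library 3 alone it called 0 of 86, with 5 at an unadjusted p under 0.05. Without any 1 library of E4, or without G8 library 1 or 2, it called 0, with 25 to 28 at an unadjusted p under 0.05, and without G8 library 3 it called 33 falls and 5 rises. RNU5B-1, a U5 RNA, had 222.1, 183.8 and 192.2 CPM in E4 against 766.4, 826.9 and 236.8 CPM in G8, and fell by 1.61 (SE 0.422, adjusted p = 0.0247), and against library 3 the difference was -0.26 (adjusted p = 0.673). Only the leave-out of G8 library 3 called it again (highest adjusted p 0.0891). SCARNA2 was called in both comparisons, at 43.4, 39.4 and 45.2 CPM in E4 against 126.7, 230.4 and 71.0 CPM in G8 (-1.74, adjusted p = 0.0180, and -0.76 against library 3, adjusted p = 0.0422). The call of SCARNA2 was lost when any 1 library of E4 was left out (adjusted p up to 0.0560).

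With end repair, in separate libraries of the same labels, microRNA took 0.720, 0.731 and 0.676% of the counts in E4 against 0.178, 0.151 and 0.510% in G8. The same library numbers of G8 were thus the lower ones there too. These values are set side by side and were not tested.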

How the data were processed

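The authors deposited counts of reads per annotated non-coding RNA, as raw whole numbers. Per the submitters' processing notes, Trim Galore, FastQC, Bowtie2 2.3.5.1, SAMtools 1.9, deepTools 3.2.1 and bedtools 2.28.0 were used with GRCh38; the placing of reads that map to several copies was not given. Tested on the table, counts ignore strand and a read counts in every row it overlaps, since all 389 small RNAs inside a row of the other strand had no more counts than that row. A non-overlapping set of 85555 of 175946 rows was kept, short structured RNAs first, with hairpins joined to their arms in 842 rows and long non-coding RNA rows within 10 nt of a kept small RNA left out. MicroRNA levels therefore cover a whole hairpin only where the row counted spans it. Where that row is shorter they cover only an arm, as for MIR155, with a row of 22 nt. Levels of the joined rows can likewise be counts of an arm by itself.

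The 12 THP-1 libraries without PNK (A4, A7, E4 and G8, 3 each) were fitted with edgeR 4.0.16 in R 4.3.3. The fit used trimmed-mean factors, filterByExpr, the quasi-likelihood test, a Benjamini-Hochberg threshold of 0.05 and the contrast E4 minus G8. A4 and A7 are outside the contrast but share in the estimate of the spread, the filter and the scaling factors. The filter left 1761 features with them and 1539 with the 6 libraries alone. Families with at least 30 counts were summed and tested with the same factors. The biological coefficient of variation was 40.3%. The fit was tested on simulated data, with the outcome not reported here. Tables and alignments used pandas 2.3.3, numpy 2.4.6 and Biopython 1.88, and DESeq2 1.42.0 gave an alternative. The deviations of same-numbered E4 and G8 libraries had correlations of 0.196, 0.114 and 0.303, and those of differently numbered ones -0.351 to 0.318, the highest being E4 library 2 with G8 library 1. The pairing thus rests only on the same-number values each being over 0.1, not on the labels.

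RNAs named in the text are the small RNAs of polymerase III, the 10 most abundant microRNAs and C/D snoRNAs, MIR142, MIR155 and MIR223, the 10 largest rises and falls among separated features, and up to 4 members of each list; others are said to be named after their values were seen. The members and lists were chosen with earlier results of these data known.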

Additional observations from a re-analysis of the deposited data

How the results depend on the processing

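Of 78 values for single RNAs and families, 24 lost their call and 1 gained a call without G8 libraries 1 and 2, and 34 lost it with only the 6 libraries fitted. The 391 calls became 1012 with factors from microRNA alone, 230 with no filter on low counts, 0 with the 6 libraries alone, 133 without G8 libraries 1 and 2, 51 with microRNA rows alone and 1153 with every deposited row; leaving out 1 library gave 31 to 976. Without the libraries numbered 3 of both groups, an alternative chosen after seeing the data, 893 were called, and with microRNA rows alone and G8 library 3 alone, likewise chosen after seeing the data, 60. The replicate block gave 262 calls (191 higher, 71 lower) and 7 family sums; for values of single RNAs and families it ended 9 calls and made 1. The 6 family sums called became 2 with library totals, 18 with factors from microRNA alone, 3 with factors from all other rows, 3 with the 6 libraries alone and 1 without G8 libraries 1 and 2; leaving out 1 library gave 2 to 8. These are counts of calls, and the members called can change. With library totals the 2 family sums called were those of Y RNA pseudogenes and of the Y RNA genes, the second not among the 6. The causes of these changes were not tested.

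Factors from microRNA alone, which set the median microRNA difference near 0 by construction, reversed the sign of VTRNA1-1 (-2.06), VTRNA1-3 (-1.26), RNY1 (-1.19), RNY4 (-1.83), RNY5 (-1.96), RPPH1 (-2.23) and MIRLET7B (-1.22), the last also with microRNA rows alone (-1.08). They reversed the family sums of 18S, 28S and 5.8S rRNA (-1.80), mitochondrial rRNA (-2.0), mitochondrial tRNA (-2.10), nuclear tRNA (-1.94), RPPH1 (-2.23), Y RNA (-2.11) and Y RNA pseudogenes (-1.17). The sums of scaRNA (-1.48) and microRNA (-0.05) turned negative too. So did single RNAs not listed above, among them MIR92A1 (-0.70), MIR30C1 (-0.16) and MIR191 (-0.07). Results against G8 library 3 alone have no G8 replicate.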

Other observations

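On the log2(CPM + 0.5) scale, 185 of 1087 features were at least 4-fold lower in both G8 library 1 and G8 library 2 than in G8 library 3. Of these 139 were microRNAs and 35 were Y RNA copies, which is 31.8% of the 110 Y RNA copies classed. The others were 5 tRNAs, 3 long or other noncoding RNAs and 1 each of the C/D snoRNAs, H/ACA snoRNAs and scaRNAs. SNORD1B had 543.0, 532.4 and 731.2 CPM in E4 against 183.9, 257.9 and 1086 CPM in G8, with G8 library 3 the highest of the 6. It was the only 1 of 202 C/D snoRNAs with at least 5 CPM that was at least 4-fold lower in both G8 library 1 and G8 library 2 than in library 3. The H/ACA snoRNA SNORA36B had 32.4, 33.9 and 39.9 CPM in E4 against 10.3, 12.8 and 63.9 CPM in G8. Neither was called with edgeR (adjusted p = 0.772 and 0.724). They were named after their values were seen.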
